A study of Mus musculus with 18 samples.

Results

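The Gimap genes (GTPases of the immunity-associated protein family) were followed as a family in an RNA-seq table of CD4+ T cells from Foxp3-Tocky mice. The members are defined by symbol and not by measured values, although the family was taken up with earlier results of these data known. The table has 15402 rows, of which 8 are members (Gimap1, Gimap3, Gimap4, Gimap5, Gimap6, Gimap7, Gimap8 and Gimap9), and all 8 were among the 13190 genes that passed the filter on low values and were tested.

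Gimap proteins bind guanine nucleotides through a conserved AIG1-type domain and are mostly found in lymphocytes, where several of them sit on membranes of the endoplasmic reticulum, lysosomes or other organelles. Gimap5 is the best known member, since its loss leaves rats and mice with too few peripheral T cells, and Gimap1 is likewise needed for mature lymphocytes to survive. Gimap3 and Gimap5 have been tied to Bcl2 family proteins and Gimap6 to Atg8 family proteins of autophagy, and Gimap7 can stimulate the GTPase activity of other members.

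In Foxp3-Tocky mice, the Foxp3 gene drives a Fluorescent Timer protein that is blue when made and then turns red, so that the 2 colours separate ongoing from past Foxp3 transcription. The mice were females of the strain C57/BL6 Foxp3Timer Foxp3-IRES-GFP. All were sensitised with 3% oxazolone on the abdominal skin, draining lymph nodes were taken 5 days later, and no untreated group was analysed here. Each of the 18 libraries came from cells pooled from 3 mice, with 3 replicates for each of 6 sorted populations. Tnaive cells (CD44lo) and Teff cells (CD44hi) had neither GFP nor Timer. The Timer+ populations were Pers1 (BL1, labelled as de novo Foxp3 expressers), Pers2 (BL2, maturing), PAt (RD1, mature) and Arrested (RD2, decaying). Pers1 and Pers2 together are called persistent here, as their Foxp3 transcription persists. The Timer follows transcription of Foxp3, and it does not follow how recently a cell met antigen.

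Values are log2 normalised read counts, and a difference between populations is a log2 fold change with its SE from limma, adjusted over all 13190 genes. A gene is called higher or lower where the adjusted p was under 0.05, and a fold limit of 1 log2 unit is named where it was also passed. In bulk samples, fewer cells of a type and less RNA per cell cannot be told apart. Comparisons below share libraries with each other, so their values are set side by side and were not counted as separate evidence.

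The sort was checked first. Foxp3 had a mean log2 value of 14.42 to 14.82 in the 4 Timer+ populations and of 11.34 in Tnaive and 10.54 in Teff. Mki67, a marker of cycling cells, was at 14.51 in Pers1, 14.54 in Pers2, 12.62 in Teff, 8.48 in Tnaive, 11.65 in PAt and 11.63 in Arrested. All 6 T-cell markers (Cd3d, Cd3e, Cd3g, Cd4, Cd5 and Lat) were listed, with a log2 summed level of 16.62 to 17.08. The summed markers of other cells were highest in Teff for 4 of 6 lists. In the other 2 (NK and endothelial cells) the sum was highest in Tnaive, where 1 gene carried it. The remaining listed genes of these 2 lists were highest in Teff. Single genes of the 4 lists were not all highest in Teff. Cd79b was highest in PAt (mean 10.03, against 9.88 in Teff), Itgam in Pers1 (8.88 against 8.33) and Xcr1 in Pers1 (5.44 against 5.37). The 5 dendritic cell markers, all listed, summed to 10.61 to 11.28 in Teff libraries and to 6.39 to 6.90 in the others. Most of the Teff sum was Siglech (mean 10.62), with Flt3 at 8.61 and Zbtb46, Xcr1 and Clec9a at 4.24 to 5.44. The 6 B cell markers summed to 12.68 to 13.21 in Teff, 9.79 to 10.33 in Tnaive, 11.20 to 11.41 in Pers1 and Pers2, 12.04 to 12.34 in PAt and 11.75 to 12.00 in Arrested. The 6 myeloid markers summed to 10.89 to 11.19 in Teff and 9.03 to 9.98 elsewhere, with Cd14 close to 0 in all libraries (0.45 to 0.60), and the 2 CD8 markers to 11.51 to 12.00 in Teff and 9.65 to 10.70 elsewhere. The NK cell markers, 4 of 5 listed, summed to 9.13 to 9.42 in Tnaive, 8.97 to 9.05 in Teff and 7.20 to 7.69 in Timer+ libraries. In Tnaive most of that sum was Eomes, which T cells also express (mean 9.13 in Tnaive and 7.88 in Teff), whereas Klrb1c had a mean of 8.0 in Teff and 4.80 in Tnaive, Ncr1 of 4.14 and 2.76, and Klre1 of 3.52 and 2.85. Klrb1c was above Eomes in Teff, Pers1 (6.43 against 5.97) and Pers2 (6.29 against 5.96), and below it in Tnaive, PAt and Arrested. Of 5 endothelial markers 3 were listed, and Pecam1, which lymphocytes also express, made up nearly all of their sum, with Cdh5 and Kdr at means of 2.97 to 6.68, both highest in Teff (6.68 and 4.85).

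The 8 genes form 1 cluster of 124 kb on chromosome 6 (GRCm38, GENCODE vM21, 48647234 to 48770851), in the order Gimap8, Gimap9, Gimap4, Gimap6, Gimap7, Gimap1, Gimap5 and Gimap3. Gimap6 and Gimap3 lie on the minus strand and the other 6 on the plus strand. Levels were compared between members only after division by the length of the merged exons. On this scale (log2 normalised count per kb, mean of the 6 populations), Gimap4 was highest at 13.58, followed by Gimap3 at 13.34, Gimap6 at 12.38, Gimap8 at 11.75, Gimap9 at 11.24 and Gimap1 at 10.90. Gimap7, at 9.45, and Gimap5, at 9.33, were lowest. The spread of Gimap7 between populations was wide, from 8.38 to 10.45 per kb, whereas Gimap5 ran from 9.07 to 9.48.

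Some reads of these genes could have been assigned to more than 1 gene. The annotated read-through gene Gm28053 shares 81 exon bases with Gimap7, 198 with Gimap1 and 153 with Gimap5, and the antisense gene Gimap1os shares 1107 with Gimap1, so that 36.0% of the exon bases of Gimap1 are also in another gene. Neither is a row of the table. The library kit keeps the strand, but whether counting used it is not given in the sources used here. Between members, stretches of 100 identical bases were found only for Gimap3 and Gimap5, in 1.65% and 0.966% of their transcript windows. Reads were 100 bases long.

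**Figure D1:**
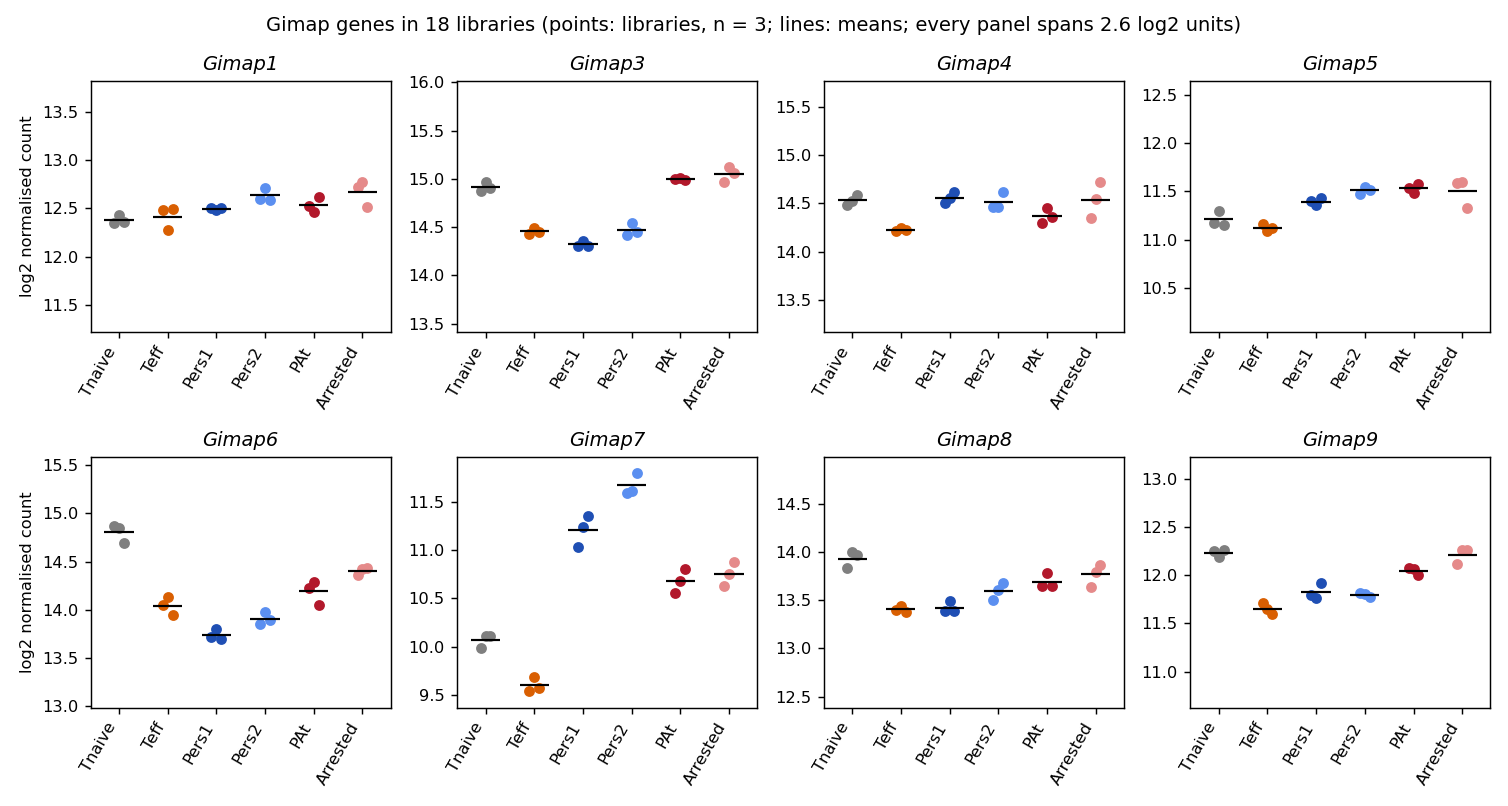
Log2 normalised count (vertical axis) of the 8 Gimap genes in the 6 populations (horizontal axis); points are libraries, lines are means of 3 libraries, and every panel spans the same number of log2 units. Gimap7 has the widest range, from 9.54 in a Teff library to 11.80 in a Pers2 library, and Gimap3 and Gimap6 are lower in Pers1 and Pers2 than in PAt and Arrested.

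Gimap7, the member that can stimulate the GTPase activity of its relatives, varied most. Its population means spanned 2.07 log2 units (4.2-fold), more than the span of 92.3% of the tested genes, whose median span was 0.58. The promoter window of Gimap7 in RefSeq (GRCm38.p6, chr6:48718371-48718670, plus strand, from 250 bases before the start to 50 bases after it) is shown because this gene carries the main difference between the persistent populations and the others. Capitals mark matches to short motif letters that are described further on, here a Runx match on the opposite strand and a STAT match.
Gimap7 promoter: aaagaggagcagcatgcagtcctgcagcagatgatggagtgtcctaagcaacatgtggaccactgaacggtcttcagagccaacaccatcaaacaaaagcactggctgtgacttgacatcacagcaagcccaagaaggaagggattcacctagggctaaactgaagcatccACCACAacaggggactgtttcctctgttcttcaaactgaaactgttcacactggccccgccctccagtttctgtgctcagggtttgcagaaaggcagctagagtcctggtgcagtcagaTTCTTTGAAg

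The Gimap7 values were 9.54, 9.69 and 9.57 in Teff and 9.99, 10.11 and 10.11 in Tnaive. They were 10.56, 10.69 and 10.80 in PAt and 10.63, 10.75 and 10.88 in Arrested. They were 11.04, 11.24 and 11.36 in Pers1 and 11.59, 11.62 and 11.80 in Pers2. The libraries of PAt and Arrested overlapped, and all other neighbouring populations in this order stood apart. Accordingly, 14 of 15 pairs of populations differed at an adjusted p under 0.05, beside 50.2% of all such comparisons over the tested genes, and the exception was Arrested against PAt, at 0.08 ± 0.09 (SE, adjusted p = 0.708).

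Gimap7 exceeded its level in PAt and Arrested in the persistent populations by 0.72 ± 0.06 (SE; 1.65-fold, adjusted p = 1.1e-09), with all 6 persistent libraries above all 6 others. The size differed between the pair of persistent populations, as Pers2 exceeded Pers1 by 0.46 ± 0.09 (adjusted p = 0.00152). Pers2 was above PAt by 0.99 ± 0.09 (adjusted p = 3.9e-09) and Pers1 was above PAt by 0.53 ± 0.09 (adjusted p = 1.8e-05). In cells without Timer the CD44hi population was the lower one, with Teff below Tnaive by 0.47 ± 0.09 (log2 fold change -0.47, adjusted p = 8.6e-05). The difference between these 2 contrasts was 1.19 ± 0.11 (adjusted p = 6.9e-09), past the fold limit, which 1.52% of tested genes passed upwards in that test. The persistent populations exceeded Tnaive by 1.37 ± 0.07 (2.59-fold, adjusted p = 5.3e-13) and Teff by 1.84 ± 0.07 (3.59-fold, adjusted p = 1.3e-14), both past the fold limit. Leaving out any 1 library kept the persistent populations 0.69 to 0.77 above PAt and Arrested.

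**Figure D2:**
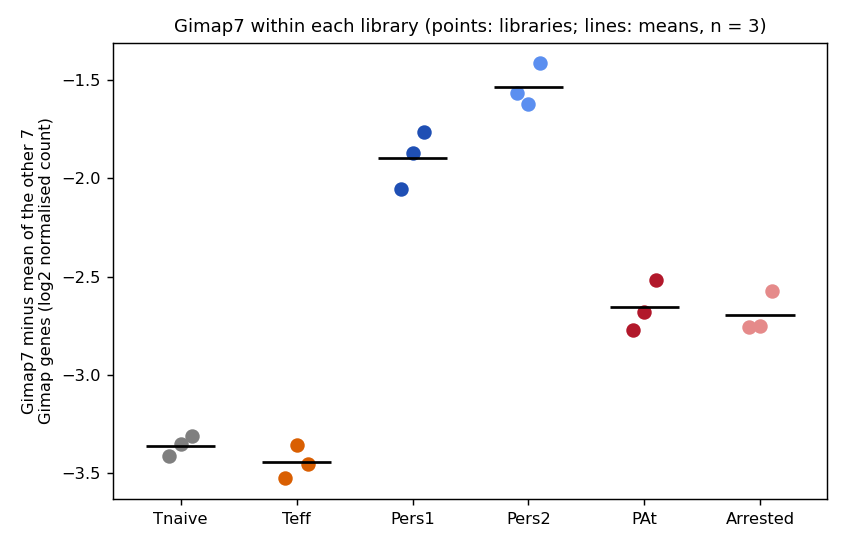
Gimap7 minus the mean of the other 7 Gimap genes in the same library (vertical axis, log2 units) by population; points are libraries and lines are means of 3 libraries. Tnaive and Teff lie from -3.53 to -3.31, PAt and Arrested from -2.77 to -2.52, and Pers1 and Pers2 from -2.05 to -1.41.

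Measured within each library against the mean of the other 7 members, Gimap7 stood at -3.36 ± 0.05 (SD, n = 3) in Tnaive, -3.45 ± 0.08 in Teff, -2.66 ± 0.13 in PAt and -2.69 ± 0.10 in Arrested. The same difference was -1.90 ± 0.15 in Pers1 and -1.53 ± 0.11 in Pers2. This difference is taken within 1 library, so a shift common to all its log2 values cancels. The deposited values look like a regularised log transform, so effects of the scaling on single genes may remain. The Tnaive and Teff libraries overlapped on it, the PAt and Arrested libraries overlapped, and those of Pers1 and Pers2 did not. Against Gimap6 alone, Gimap7 was at -4.74 in Tnaive, -4.44 in Teff, -3.51 in PAt, -3.65 in Arrested, -2.53 in Pers1 and -2.24 in Pers2.

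Gimap6, which binds Atg8 family proteins, had the next widest span, 1.06 log2 units, above 78.0% of tested genes. Its order of levels put Tnaive first and Pers1 last, whereas Gimap7 was highest in Pers2 and Pers1 and lowest in Teff. Its promoter window (chr6:48708195-48708494, minus strand, RefSeq on GRCm38.p6) is given for comparison with that of Gimap7, with a STAT match and an Ets match in capitals.
Gimap6 promoter: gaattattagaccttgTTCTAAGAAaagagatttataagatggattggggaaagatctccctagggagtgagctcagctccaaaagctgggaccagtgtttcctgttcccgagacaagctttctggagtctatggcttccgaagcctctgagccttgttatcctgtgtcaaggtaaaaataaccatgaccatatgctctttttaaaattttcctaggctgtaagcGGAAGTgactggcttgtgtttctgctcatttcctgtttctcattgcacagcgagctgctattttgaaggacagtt

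The Gimap6 values were 14.87, 14.85 and 14.70 in Tnaive and 14.06, 14.13 and 13.94 in Teff. They were 14.23, 14.29 and 14.05 in PAt and 14.36, 14.43 and 14.43 in Arrested. They were 13.72, 13.80 and 13.70 in Pers1 and 13.86, 13.98 and 13.90 in Pers2. All Tnaive libraries were above all others, and all persistent libraries were below all PAt and Arrested libraries. Gimap6 in persistent cells differed from its level in PAt and Arrested by -0.47 ± 0.04 (log2, adjusted p = 5.7e-09), and it was lower in Teff than in Tnaive (-0.76 ± 0.06, adjusted p = 1.1e-09). Against Tnaive, the persistent populations were at -0.98 ± 0.05 (adjusted p = 7.5e-13), just inside the fold limit, and Tnaive exceeded Pers1 alone by 1.06 ± 0.06 (adjusted p = 2.9e-12), past it. Without Tnaive replicate 3 the former value was -1.03, past the fold limit. Arrested exceeded PAt by 0.22 ± 0.06 (adjusted p = 0.0494). This call was close to the threshold: it was lost in 12 of 18 fits with 1 library left out (adjusted p up to 0.209, without PAt replicate 3), with no filter on low values (0.0512), with no variance trend (0.103) and when only these 2 populations were fitted (0.176).

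Gimap3 and Gimap5 are close relatives that both have ties to Bcl2 family proteins. Gimap3 fell into 2 levels. The promoter window of Gimap3 (chr6:48770802-48771101, minus strand, RefSeq on GRCm38.p6) is shown as that of the member with the lowest log2 fold change in persistent cells against PAt and Arrested, with a forkhead match on the opposite strand and a STAT match in capitals.
Gimap3 promoter: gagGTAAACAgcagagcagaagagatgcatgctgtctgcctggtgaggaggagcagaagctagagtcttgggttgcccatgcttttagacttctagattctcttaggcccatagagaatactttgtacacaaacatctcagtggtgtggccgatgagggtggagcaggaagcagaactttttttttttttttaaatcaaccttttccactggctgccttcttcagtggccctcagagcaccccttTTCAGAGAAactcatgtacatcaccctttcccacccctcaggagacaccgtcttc

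The Gimap3 values were 14.87, 14.97 and 14.91 in Tnaive, between 14.99 and 15.01 in the 3 PAt libraries and 14.97, 15.13 and 15.07 in Arrested. They were 14.43, 14.49 and 14.45 in Teff, 14.31, 14.36 and 14.30 in Pers1 and 14.41, 14.55 and 14.45 in Pers2. The 9 libraries of the first level were all above the 9 of the second, although the levels were drawn from these same values. The persistent populations had less Gimap3 than PAt and Arrested (-0.63 ± 0.03, 1.55-fold, adjusted p = 6.8e-13), and Teff had less than Tnaive (-0.46 ± 0.05, adjusted p = 4.0e-08). The difference between the contrasts was -0.17 ± 0.06 (adjusted p = 0.0217), and the adjusted p was 0.0667 without Tnaive replicate 1 and 0.0647 without Teff replicate 2. Persistent cells did not differ from Teff past the threshold, at -0.06 ± 0.04 (adjusted p = 0.232), but they did with each library centred on its median (-0.12, adjusted p = 0.0184). The levels were not uniform inside. Teff exceeded Pers1 alone by 0.13 ± 0.05 (adjusted p = 0.0233), whereas Pers2 was 0.02 ± 0.05 above Teff (adjusted p = 0.808). Tnaive against Arrested gave -0.14 ± 0.05 (adjusted p = 0.0247).

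Gimap5, the member whose loss causes T-cell lymphopenia, separated the populations by Timer instead in the values as deposited. Its values were 11.18, 11.30 and 11.15 in Tnaive and 11.16, 11.09 and 11.12 in Teff. They were 11.40, 11.35 and 11.43 in Pers1 and 11.48, 11.55 and 11.51 in Pers2. They were 11.53, 11.48 and 11.57 in PAt and 11.59, 11.59 and 11.33 in Arrested. All 12 Timer+ libraries were above all 6 libraries without Timer, although the gap between the nearest of them was small. Gimap5 was higher in PAt and Arrested than in Tnaive by 0.31 ± 0.05 (adjusted p = 6.5e-05) and than in Teff by 0.39 ± 0.05 (adjusted p = 3.0e-06). Persistent cells against PAt and Arrested gave -0.06 ± 0.04 (adjusted p = 0.199), and Teff against Tnaive gave -0.08 ± 0.06 (adjusted p = 0.256). The first of these 2 values became -0.11 (adjusted p = 0.0133) without Arrested replicate 3, whose Gimap5 value was the lowest of the Timer+ libraries. With libraries centred on their medians both passed, at -0.13 (adjusted p = 0.0143) and -0.17 (adjusted p = 0.0278). Centring also weakened the split by Timer. Persistent cells exceeded Tnaive by 0.24 ± 0.05 (adjusted p = 0.0004) as deposited, but by 0.10 (adjusted p = 0.105) after centring.

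Gimap4, which has been described as a modulator of T-cell apoptosis, varied little. Its values were 14.48, 14.53 and 14.59 in Tnaive, 14.51, 14.55 and 14.62 in Pers1 and 14.46, 14.46 and 14.62 in Pers2. They were 14.30, 14.45 and 14.36 in PAt and 14.35, 14.54 and 14.72 in Arrested. The Teff libraries, at 14.22, 14.24 and 14.22, were below every other library. Teff was lower than Tnaive (-0.31 ± 0.07, adjusted p = 0.000841) and lower than the persistent populations, which were 0.31 ± 0.06 above it (adjusted p = 0.00018). The value for persistent cells against PAt and Arrested was 0.08 ± 0.05 (adjusted p = 0.145), and it was 0.13 (adjusted p = 0.0109) without Arrested replicate 3.

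Gimap1, needed by mature lymphocytes, had the narrowest span, 0.29 log2 units, wider than that of 15.5% of tested genes. Its libraries ran from 12.35 to 12.43 in Tnaive, 12.27 to 12.50 in Teff, 12.48 to 12.51 in Pers1, 12.59 to 12.71 in Pers2, 12.47 to 12.62 in PAt and 12.52 to 12.77 in Arrested. No populations next to each other in the order of its means differed past the threshold. PAt and Arrested were above Tnaive by 0.22 ± 0.06 (adjusted p = 0.00247), with no overlap. They were above Teff by 0.19 ± 0.06 (adjusted p = 0.0087), which became 0.12 (adjusted p = 0.114) without Teff replicate 2. The exon bases shared with Gm28053 and Gimap1os bear on all Gimap1 values.

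Gimap8, the longest protein of the family with repeated GTPase domains, and Gimap9 followed the order of Gimap6 in part. Both had their highest mean in Tnaive, as Gimap6 had, but their lowest in Teff, whereas Gimap6 was lowest in Pers1. For Gimap9 the Tnaive and Arrested libraries overlapped, and Tnaive was only 0.02 ± 0.05 above (adjusted p = 0.783). Gimap8 values were 13.83, 14.00 and 13.97 in Tnaive, 13.39, 13.44 and 13.38 in Teff and 13.39, 13.49 and 13.39 in Pers1. They were 13.51, 13.60 and 13.68 in Pers2, 13.64, 13.78 and 13.64 in PAt and 13.64, 13.79 and 13.87 in Arrested. The Teff and Pers1 libraries overlapped at the low end. The persistent populations also had less Gimap8 than PAt and Arrested (-0.22 ± 0.04, adjusted p = 0.000148), with overlapping libraries, and Teff had less than Tnaive (-0.53 ± 0.06, adjusted p = 2.5e-07). Gimap9 values were 12.24, 12.19 and 12.26 in Tnaive, 11.71, 11.65 and 11.59 in Teff and 11.79, 11.76 and 11.92 in Pers1. They were 11.82, 11.81 and 11.77 in Pers2, 12.07, 12.06 and 12.00 in PAt and 12.12, 12.26 and 12.26 in Arrested. All persistent libraries were below all PAt and Arrested libraries, with a difference of -0.32 ± 0.04 (adjusted p = 1.6e-07). Teff was below Tnaive without overlap (-0.58 ± 0.05, adjusted p = 4.6e-09).

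**Figure D3:**
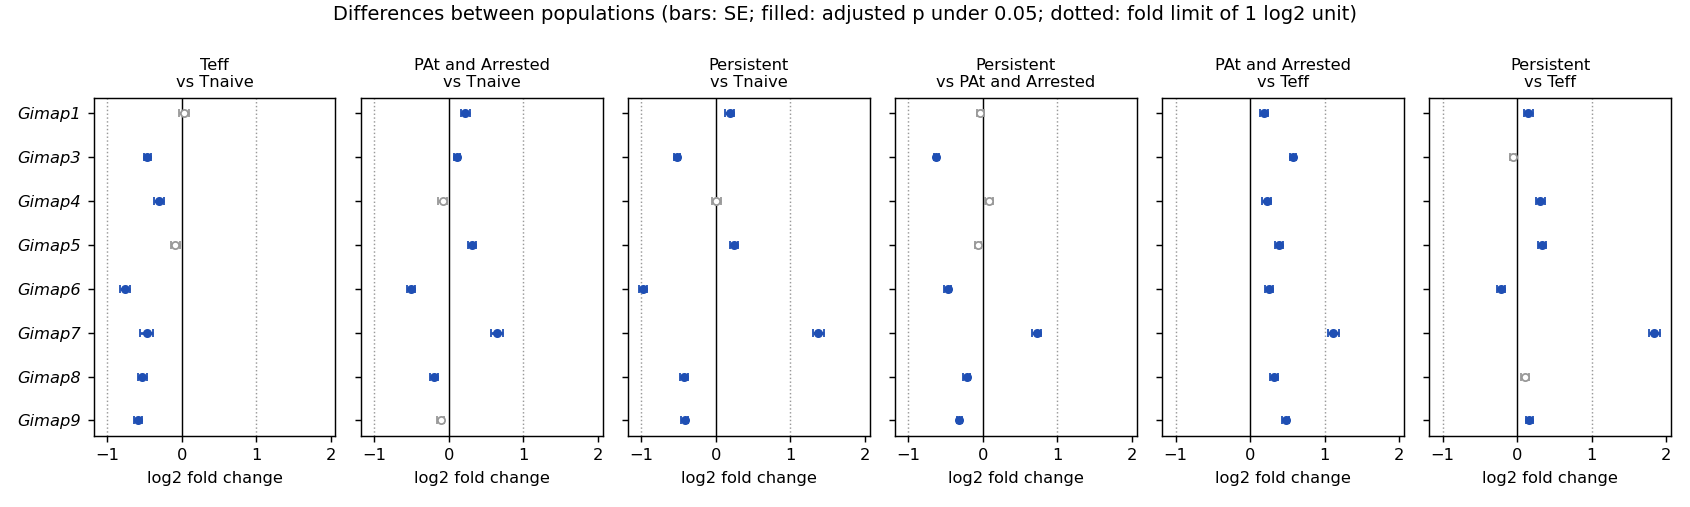
Log2 fold change (horizontal axis) of each Gimap gene (vertical axis) in 6 comparisons of populations; bars are SE, filled points have an adjusted p under 0.05 from limma, and dotted lines mark the fold limit of 1. Gimap7 is the only gene past the limit, at 1.12 for PAt and Arrested against Teff, 1.84 for persistent cells against Teff and 1.37 for persistent cells against Tnaive.

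Counted over the family, persistent cells against PAt and Arrested gave 1 higher member (Gimap7), 4 lower members (Gimap3, Gimap6, Gimap8 and Gimap9) and 3 that did not pass the test. Over all tested genes 35.9% were higher and 35.1% lower, so 5 of 8 is close to the background of 70.9%. All libraries of persistent cells were above those of PAt and Arrested for Gimap7 (24.0% of genes) and below them for Gimap3, Gimap6 and Gimap9 (21.8% of genes). No member passed the fold limit in limma, which 7.51% of genes did, and at an unadjusted p under 0.05 with no fold limit 5 members passed. The median of the 8 log2 fold changes was -0.14, beside -0.01 over all genes. Mki67, 2.88 log2 units higher in persistent cells, moved with this contrast. So did the summed B cell markers, the CD8 markers (9.65 to 10.18 against 10.41 to 10.70) and the Pecam1-led endothelial sum (11.82 to 12.21 against 12.45 to 12.86), all lower in all persistent libraries than in all PAt and Arrested libraries, and the T-cell markers, which were higher (16.84 to 16.89 against 16.62 to 16.82). Their part in it was not tested.

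In Teff against Tnaive, 6 members were lower (Gimap3, Gimap4, Gimap6, Gimap7, Gimap8 and Gimap9), none was higher (0 also at an unadjusted p under 0.05), and Gimap1 and Gimap5 did not pass, although Gimap5 did after median centring. Over all genes 27.7% were lower and 31.3% higher, and 11.2% passed the fold limit, which 0 members did in limma. The 6 lower members had all Teff libraries below all Tnaive libraries, which 30.8% of genes had. The median of the members was -0.47, beside 0.0047 over all genes. The Teff libraries also held the highest summed levels of dendritic cell, B cell, myeloid and CD8 markers given above. Klrb1c, Ncr1 and Klre1 were highest there too, whereas Itgam had a mean of 8.33 in Teff and 8.44 in Tnaive. Mki67 was 4.14 log2 units higher in Teff than in Tnaive. The part of these in the members' values was not tested.

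Against Teff, all 8 members were higher in PAt and Arrested, where 24.8% of genes were higher. Only Gimap7, by 1.12 ± 0.07 (2.17-fold, adjusted p = 5.1e-11), passed the fold limit, as did 2.84% of genes in that direction. The other 7 were between 0.19 and 0.57 higher, and the median over the members was 0.36. Persistent cells against Teff gave 5 higher members (Gimap1, Gimap4, Gimap5, Gimap7 and Gimap9, where 29.8% of genes were higher) and 1 lower, Gimap6, at -0.22 ± 0.05 (adjusted p = 0.00176; 28.9% of genes were lower). Gimap7 alone passed the fold limit, as did 4.28% of genes upwards. Gimap1, at 0.15 ± 0.06 (adjusted p = 0.0289), did not pass without Teff replicate 2 (0.08, adjusted p = 0.285), without Pers2 replicate 2 (0.0625), with no variance trend (0.0550) or after median centring (0.193), where Gimap9 did not pass either (0.10, adjusted p = 0.0641). Gimap8, at 0.11 ± 0.05 (adjusted p = 0.0961), passed with the replicate block (adjusted p = 0.0341) and when only these populations were fitted (0.0454). The marker levels of other cells in Teff apply to these comparisons as well, Mki67 was at -0.98 in PAt and Arrested and at 1.90 in persistent cells against Teff, and their part was not tested.

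Against Tnaive, PAt and Arrested had 4 higher members (Gimap1, Gimap3, Gimap5 and Gimap7) and 2 lower (Gimap6 and Gimap8), with 26.9% of all genes higher and 23.8% lower. No member passed the fold limit in limma, as 7.9% of genes did. Gimap7 was 0.65 ± 0.07 higher (adjusted p = 2.5e-07) and Gimap6 was at -0.51 ± 0.05 (adjusted p = 9.2e-08). Gimap3, at 0.11 ± 0.04 (adjusted p = 0.0325), was near the threshold and did not pass without Tnaive replicate 1 (adjusted p = 0.145), without Tnaive replicate 3 (0.0933), without Arrested replicate 2 (0.0774), with no variance trend (0.0624), with only these populations fitted (0.0752) or after median centring (0.03, adjusted p = 0.545). Centring also brought Gimap9 (-0.18, adjusted p = 0.00186) and Gimap4 (-0.16, adjusted p = 0.0304) past the threshold, so that 3 members were higher and 4 lower. Gimap9, at -0.11 (adjusted p = 0.0603) as deposited, passed in 3 fits with 1 library left out and Gimap4 in 1. Persistent cells had 3 higher members (Gimap1, Gimap5 and Gimap7) and 4 lower (Gimap3, Gimap6, Gimap8 and Gimap9) than Tnaive, where 38.5% of genes were higher and 35.5% lower, and 10.6% higher past the fold limit, as Gimap7 was. The library median was 0.14 higher in persistent cells than in Tnaive, whereas the median over all genes of their log2 fold changes was 0.0098. With each library centred on its median Gimap7 was at 1.23, Gimap6 at -1.12, Gimap3 at -0.66, Gimap8 at -0.57 and Gimap9 at -0.56, while Gimap1 (0.04, adjusted p = 0.509) and Gimap5 (0.10, adjusted p = 0.105) no longer passed and Gimap4 changed from 0.0036 to -0.14 (adjusted p = 0.0391). The B cell markers were higher in all Timer+ libraries than in Tnaive (9.79 to 10.33), and Mki67 was 3.16 log2 units higher in PAt and Arrested and 6.04 higher in persistent cells. The NK sum, mostly Eomes in Tnaive, and the sum led by Pecam1 were lower in all Timer+ libraries than in Tnaive, and the part of these levels was not tested.

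Within the pairs of Timer+ populations the members differed little. In Pers2 against Pers1, Gimap7 was higher and the other 7 did not pass, where 10.6% of all genes passed and 0.19% passed the fold limit, among them no member. The libraries of Pers2 were nevertheless all above those of Pers1 for 6 members (Gimap1, Gimap3, Gimap5, Gimap6, Gimap7 and Gimap8), which 16.8% of genes showed. With the replicate number as a block, Gimap3 (0.15, adjusted p = 0.0125), Gimap6 (0.17, adjusted p = 0.0233) and Gimap8 (0.17, adjusted p = 0.0199) passed too. Gimap6 (0.0404) and Gimap8 (0.0472) also passed when only these 2 populations were fitted, and Gimap3, whose adjusted p was 0.0508, passed with the stricter filter (0.0422). In Arrested against PAt, 1 member passed, Gimap6, where 5.04% of genes did and 0.121% passed the fold limit. Gimap9, at 0.17 (adjusted p = 0.0699), passed after median centring (0.20, adjusted p = 0.0317) and without Arrested replicate 1 (0.0263), where Gimap4 passed too (0.26, adjusted p = 0.0203).

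The contrast of persistent cells with PAt and Arrested and the contrast of Teff with Tnaive share no library, and they were compared directly. The difference passed the test for 6 members, where 48.7% of genes passed. It was positive for Gimap4 (0.39 ± 0.09), Gimap6 (0.29 ± 0.08), Gimap7 (1.19), Gimap8 (0.31 ± 0.08) and Gimap9 (0.27 ± 0.06) and negative for Gimap3. Gimap6, Gimap8 and Gimap9 were lower in both contrasts and by less in the Timer+ one. Gimap7 was the member with opposite signs that both passed the test. Gimap1 (-0.07 ± 0.08, adjusted p = 0.472) and Gimap5 (0.02 ± 0.08, adjusted p = 0.848) did not differ past the threshold.

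The order of the populations was read for all members. Of 40 neighbouring pairs in these orders, 12 differed, beside 20.1% of such pairs over all tested genes, and 17 had libraries that did not overlap, beside 28.5%. Gimap7 had 4 of its 5 neighbouring pairs apart by the test, Gimap3, Gimap6 and Gimap9 had 2 each, Gimap5 and Gimap8 had 1 each, and Gimap1 and Gimap4 had 0. As a description over the 6 population means, which share libraries and normalisation, Gimap3, Gimap6, Gimap8 and Gimap9 had pairwise correlations of 0.78 to 0.92, and Gimap1 and Gimap5 of 0.87. Gimap7 had 0.81 with Gimap5, 0.72 with Gimap1 and -0.50 with Gimap6. Within populations, over the deviations of 18 libraries, the correlation was 0.80 for Gimap1 and Gimap5, 0.81 for Gimap4 and Gimap8 and 0.75 for Gimap4 and Gimap7, but -0.59 for Gimap4 and Gimap5, -0.51 for Gimap1 and Gimap4 and -0.41 for Gimap1 and Gimap6. It was above 0 for 17 of 28 pairs, with a median of 0.12.

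**Figure D4:**
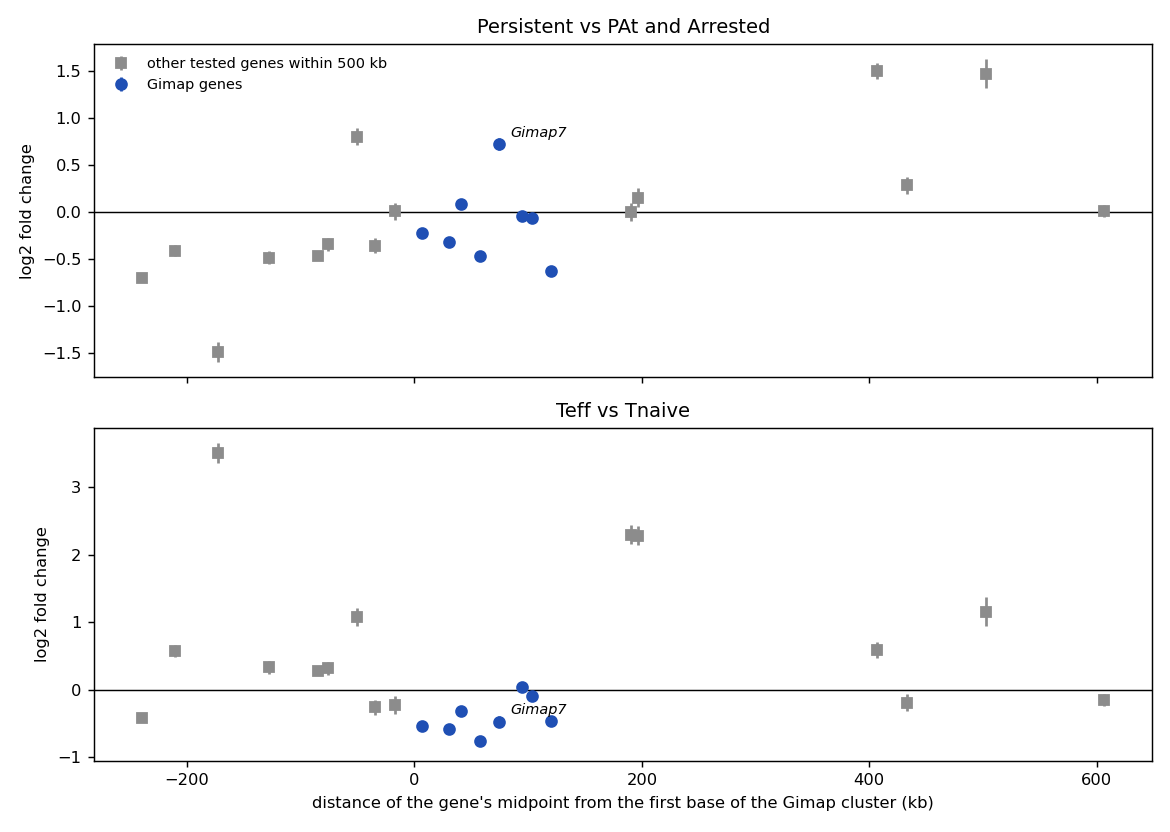
Log2 fold change (vertical axis, bars SE) of the Gimap genes (circles) and of the 15 other tested genes within 500 kb (squares) against distance from the first base of the cluster in kb (horizontal axis), for persistent cells against PAt and Arrested (top) and Teff against Tnaive (bottom). In the top panel Gimap7, at 0.72, lies above the other 7 members, and the neighbours run from -1.49 to 1.50.

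The genes around the cluster were described with the same fit. Within 500 kb, 9 tested genes lay before the cluster and 6 after it, and no other tested gene lay inside. In persistent cells against PAt and Arrested, 4 of these 15 were higher (35.9% of all tested genes were) and 7 lower (35.1%), of which 2 and 1 passed the fold limit. The 2 nearest genes before the cluster were AI854703 (0.0064 ± 0.09, adjusted p = 0.955) and Zfp775 (-0.36 ± 0.08, adjusted p = 0.000329). The 2 nearest after it, Tmem176b (-0.0012 ± 0.10, adjusted p = 0.991) and Tmem176a (0.15 ± 0.10, adjusted p = 0.184), code for membrane proteins of antigen-presenting and other cells. In Teff against Tnaive, 10 of the 15 neighbours were higher and 1 lower, beside 31.3% and 27.7% of all tested genes. Tmem176b was 2.30 ± 0.14 higher there (adjusted p = 4.7e-12) and Tmem176a 2.28 ± 0.14 (adjusted p = 9.2e-12), and the part of the other cells marked in Teff was not tested here either.

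**Figure D5:**
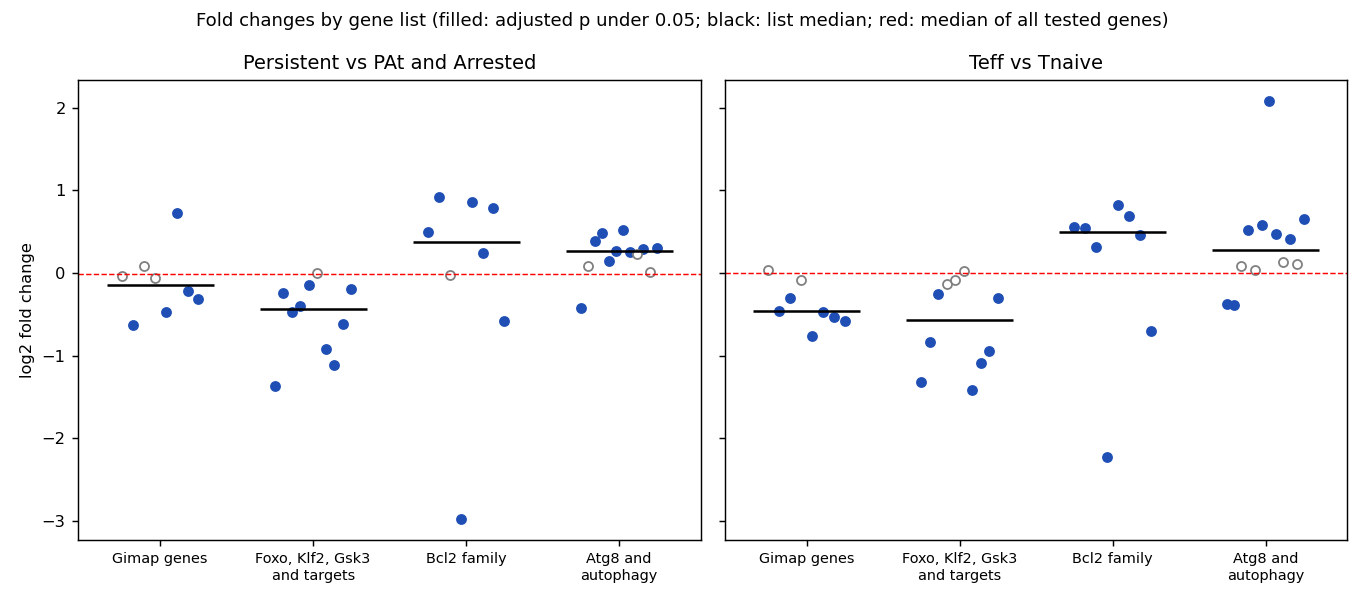
Log2 fold change (vertical axis) of the members and of 3 gene lists (horizontal axis) for persistent cells against PAt and Arrested (left) and Teff against Tnaive (right); filled points have an adjusted p under 0.05, black lines are list medians and the red dashed line is the median of all tested genes. In the left panel the median is -0.43 for the Foxo, Klf2 and Gsk3 list, 0.37 for the Bcl2 family and 0.26 for autophagy genes, with Bcl2 far below at -2.97.

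Genes that are known to act with or near Gimap proteins were read as 3 lists. The list of Foxo factors, Klf2, their trafficking and survival targets and the Gsk3 kinases had 9 of 10 genes lower and none higher in persistent cells than in PAt and Arrested, with a median of -0.43 beside -0.01 over all genes. Over all genes 35.1% were lower and 35.9% higher. Lowest were Ccr7, a receptor for lymph node homing, at -1.37 ± 0.05 (adjusted p = 5.3e-15) and Klf2, a factor of quiescent T cells, at -1.11 ± 0.09 (adjusted p = 7.8e-10). The highest were the kinases Gsk3b (-0.0038 ± 0.05, adjusted p = 0.955) and Gsk3a (-0.14 ± 0.04, adjusted p = 0.00325). In Teff against Tnaive 7 of the 10 were lower and none higher, beside 27.7% and 31.3% of all genes, and the median was -0.57.

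The Bcl2 family list had 5 of 8 genes higher and 2 lower in persistent cells than in PAt and Arrested, beside 35.9% and 35.1% of all genes, with a median of 0.37. Its lowest genes were both anti-apoptotic, Bcl2 at -2.97 ± 0.07 (adjusted p = 3.4e-18) and Mcl1 at -0.58 ± 0.04 (adjusted p = 1.3e-11). Its highest were Bak1, a pro-apoptotic effector, at 0.92 ± 0.04 (adjusted p = 1.0e-13) and Bcl2l1, which codes for anti-apoptotic Bcl-xL, at 0.86 ± 0.04 (adjusted p = 1.7e-13). In Teff against Tnaive 6 of 8 were higher and 2 lower, beside 31.3% and 27.7% of all genes, with a median of 0.50.

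The list of Atg8 family and autophagy genes had 8 of 12 genes higher and 1 lower in persistent cells than in PAt and Arrested, with a median of 0.26. Passing in either direction was thus close to the background of 70.9% of all genes, of which 35.9% were higher. Highest were Gabarapl1, an Atg8 family gene, at 0.52 ± 0.08 (adjusted p = 8.8e-06) and Atg7, the enzyme that activates Atg8 proteins, at 0.49 ± 0.06 (adjusted p = 1.7e-07). Lowest were Atg16l1, at -0.42 ± 0.04 (adjusted p = 5.1e-09), and the receptor Sqstm1, at 0.02 ± 0.04 (adjusted p = 0.751). In Teff against Tnaive 6 of 12 were higher and 2 lower, beside 31.3% and 27.7% of all genes, with a median of 0.27.

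The 5 tested genes outside the family whose values were most like the mean of the 8 members over the 18 libraries were Itga6 (Pearson r = 0.931), Il21r (0.930), Socs3 (0.927), Gbp8 (0.920) and Emp3 (0.908). These are descriptions, and all libraries share their normalisation. The members' mean itself moved little, from 12.62 in Teff to 13.11 in Arrested, with Tnaive, Pers2 and PAt all at 13.01 and Pers1 at 12.87. For single members, in a search added after values had been seen, Neb (r = 0.971), Eif4e3 (0.969), Fam3c (0.964), Alox8 (0.963) and Sytl1 (0.962) were most like Gimap7. Ppm1h (0.972), Tpt1 (0.969), Tnfrsf1a (0.968), Fam102a (0.967) and Fam84b (0.962) were most like Gimap6. Bcl2 (0.980) was among the 5 genes most like Gimap3, with Cacna2d4 (0.983), Sorcs2 (0.983), Ttc28 (0.980) and 1700088E04Rik (0.979).

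The promoter windows of the members, 9 in RefSeq since Gimap8 has 2, were searched on both strands for the letters of 6 motifs, with overlapping matches allowed. The Runx letters TGTGGT were found for Gimap1, Gimap4 and Gimap7 and are in 16.8% of 32851 mouse promoter windows of the same length. In the Gimap7 window printed above, this match begins 79 bases before the start. The STAT letters TTCNNNGAA were found for Gimap3, Gimap6, Gimap7 and Gimap8, and in 8.3% of all windows. The Ets letters GGAAGT were found for Gimap1, Gimap5, Gimap6 and Gimap9, and in 23.8% of all windows, and in the Gimap6 window they begin 25 bases before the start. The forkhead letters TGTTTAC were found only for Gimap3 among the members, 247 bases before its start, and in 3.65% of all windows. The AP-1 letters TGANTCA (7.81% of all windows) and the Tcf/Lef letters CTTTGAT (3.73%) were in none of the 9 windows. The windows of Gimap7, Gimap6 and Gimap3 hold 50.7%, 43.3% and 48.0% G and C, with 2, 4 and 2 CG pairs, beside medians of 52.7% and 7 over all windows. No Gimap promoter was assayed here, and a match is only a run of letters.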

How the data were processed

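RNA-seq libraries of 18 sorted samples (6 populations, 3 replicates each) were made by the authors with a stranded mRNA kit. The submitters' processing notes name CASAVA 1.8.2, FastQC 0.11.2, TopHat2 2.0.9, DESeq2 and the build mm10. The values deposited by the authors are log2 normalised counts for 15402 rows, from -0.02 to 18.89, which look like a regularised log transform and so shrink the folds of rarely read genes. Counts as such were not used here, so the depth per library is unknown and precision rests on the spread between 3 replicates. The design had allowed for counts with edgeR, which was not used. Whether pools are separate experiments is not given, so p-values measure the spread between these libraries.

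The 13190 genes with a mean of at least 3 were fitted in 1 model of 6 populations by limma 3.58.1 (R 4.3.3; 12 residual degrees of freedom), with a variance trend and Benjamini-Hochberg adjustment over all of them. Pooled populations were weighted equally. The fit was tested on simulated data. Alternatives were other filters, no fold limit, median centring, no trend, only the populations compared, a replicate block and leaving out each library. Named genes were the 8 members, the 2 highest and 2 lowest of each list, the 2 nearest tested neighbours each side, the 5 genes most like the members' mean, and Foxp3 and Mki67. The members and lists were chosen with earlier results of these data known. Coordinates came from GENCODE vM21.

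The description has all populations sorted from each mouse, but whether a replicate number marks the same pool in every population is not stated outright. The fit behind the printed p-values has no replicate term. The number as a block was an alternative, whose value is given beside each member it brought past the threshold. Deviations of same-numbered libraries from their population means had a median correlation of 0.166 over 45 pairs (from -0.206 to 0.436), and those of different numbers -0.064 over 90 pairs. Of the 45 same-numbered pairs 42 were above 0 and 32 above 0.1, against 17 and 3 of the 90 others. Deviations sum to 0 within each population, so values above 0 for same-numbered pairs push the others below 0. The 90 others are therefore no independent baseline. By the 45 same-numbered pairs, libraries of the same number shared variation, which the printed p-values do not take into account.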

Additional observations from a re-analysis of the deposited data

Results flagged for a closer look

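For 6 members the contrast of persistent cells with PAt and Arrested differed from the contrast of Teff with Tnaive by limma's test of the difference itself. The difference was 1.19 log2 units for Gimap7 (SE 0.11, adjusted p = 6.9e-09), which was higher in the first contrast (0.72) and lower in the second (-0.47). It was 0.39 for Gimap4 (adjusted p = 0.000822), 0.31 for Gimap8 (adjusted p = 0.00193), 0.29 for Gimap6 (adjusted p = 0.00387) and 0.27 for Gimap9 (adjusted p = 0.00173). These 4 genes had a lower value in Teff than in Tnaive, and a smaller fall or none past the test in persistent cells. It was -0.17 for Gimap3 (adjusted p = 0.0217), which was lower in both contrasts and by more in the Timer+ one. Of all tested genes, 48.7% passed this test. The markers of other cells that were highest in Teff enter the second contrast, and their part was not tested.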

How the results depend on the processing

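The members past the threshold with no fold limit are given with the share of all tested genes in brackets. They were 5 for persistent cells against PAt and Arrested (70.9%) and 6 for Teff against Tnaive (31.3% higher, 27.7% lower). For PAt and Arrested they were 6 against Tnaive (26.9% higher, 23.8% lower) and 8, all higher, against Teff (24.8% higher). For persistent cells they were 6 against Teff (29.8% higher, 28.9% lower) and 7 against Tnaive (38.5% higher, 35.5% lower). Pers2 against Pers1 gave 1 (10.6%), Arrested against PAt 1 (5.04%) and the difference between contrasts 6 (48.7%). Persistent cells against Tnaive gave 2 members instead of 1 after median centring, and 1 to 2 with 1 library left out. The replicate block changed no count with the fold limit. It brought 4 of 72 member comparisons, all named in the report, past the threshold, and it raised the neighbouring pairs past the test from 12 to 18. Of 72 member comparisons, centring lost 5 calls and added 6 without a change of sign. It reversed Gimap1 in Teff against Tnaive (-0.046), Gimap4 in persistent cells against Tnaive (-0.14) and Gimap5 in Arrested against PAt (0.00063), none of which passed as deposited. With 1 library left out, 5 comparisons that did not pass changed sign, with ranges of -0.0048 to 0.11 for Gimap1 in Teff against Tnaive, -0.023 to 0.031 for Gimap4 in persistent cells against Tnaive, -0.072 to 0.060 for Gimap5 in Arrested against PAt, -0.024 to 0.048 for Gimap5 in the difference between contrasts and -0.057 to 0.020 for Gimap9 in Pers2 against Pers1. The causes were not tested. Of 432 values under the other settings 404 kept direction and side of the threshold, and 1256 of 1296 with 1 library left out did. Depth is unknown, so changes below the spread of 3 libraries cannot be seen.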
